A study of Gallus gallus with 23 samples.

Results

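The 5 genes HBA1, HBBA, CA2, SPTB and SLC4A1, all known from red blood cells, were followed through the liver RNA of 23 chickens. They were found by their gene symbols in the platform annotation, as 5 of 6428 named genes and 6 of 19200 spots on a 2-colour spotted cDNA array, on which CA2 had 2 spots and the others 1 each. The birds were broiler cockerels (Ross x Cobb) that carried an implanted pump (1.0 microlitre per hour) from 29 days of age and were sampled after 6 days. The pump held vehicle alone, a mixture of DMSO and propylene glycol (VC, 6 birds), corticosterone at 600 micrograms per kg per day (CS, 6 birds), triiodothyronine at 192 micrograms per kg per day (T3, 6 birds), or both hormones at these doses (CS+T3, 5 birds). Each array set the RNA of 1 bird against 1 common pool of liver RNA from 6 control birds, so every value is a log ratio to that pool. The base of the logarithm was taken as 2. The numerator of the ratio is not given in the sources used here. Positive values were taken as higher in the bird, and every direction below turns if the pool was the numerator.

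Chicken red cells keep their nucleus, and young ones carry RNA, so blood left in an organ brings their transcripts into its RNA. HBA1 encodes the adult alpha-A globin and HBBA the adult beta globin, whose chains pair with haem to form the haemoglobin that carries oxygen. CA2 is carbonic anhydrase, which turns carbon dioxide into bicarbonate. SLC4A1, called band 3, moves that bicarbonate across the red cell membrane in exchange for chloride, and SPTB encodes erythroid beta spectrin, a rod of the skeleton to which band 3 is tied through ankyrin. Corticosterone is the main glucocorticoid of birds and triiodothyronine the active thyroid hormone.

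The 5 genes did not pass the test together. SLC4A1 rose with CS: it was 0.36 higher on the log2 scale in CS than in VC (SE 0.09, 1.28-fold), 0.34 higher than in T3 (SE 0.10) and fell by 0.40 (SE 0.10) from CS to CS+T3. These calls lay near the threshold (limma adjusted p = 0.0370, 0.0493 and 0.0323). They held in 7, 4 and 7 of 15 other settings, with the direction kept. In some of these settings, such as other minimum numbers of values per group, the values of SLC4A1 did not change. Each of the calls was lost with quantile normalization, with array weights and with only the groups compared, among others. SPTB lay in the same direction, 0.75 above VC in CS (SE 0.24), without passing the test. HBA1, HBBA and CA2 passed the test in no comparison, and HBA1 varied more between birds of 1 group than between groups. All 5 differences between CS and VC were positive. Those of HBA1, HBBA and CA2 were 0.10, 0.04 and 0.04, beside a median of 0.03 over all features. Whether the 5 genes share a red cell signal could not be decided, since even spots of the same gene correlated at a median r of 0.0315 on this array. They are described one by one.

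Between 8925 and 13721 spots had a value on each array, and 9250 features (genes, or spots without a name) with at least 3 values in every group were tested in limma with a Benjamini-Hochberg threshold of 0.05. Around the group means a feature varied with a median SD of 0.221. On 6 arrays (VC 4, CS 3, T3 1, T3 3, CS+T3 1 and CS+T3 2) deposited values sat against the wrong spots over at least part of the array, and 4 of them (VC 4, CS 3, T3 3 and CS+T3 1) were displaced over most spots. The last 4 correlated with the mean of the other arrays at -0.0595 to 0.01 in place and at 0.256 to 0.409 after realignment. CS+T3 2 went from 0.447 to 0.477. T3 1 went from 0.10 to 0.177, the lowest of the 6 after realignment, and had the fewest values, 8925. The values of T3 bird 1 given below carry this limit. At the spots of the 5 genes the values were moved by 13 positions on CS 3, 14 on T3 3, 7 on CS+T3 1, 1 or 4 on VC 4, 0 or 2 on T3 1 and 0 on CS+T3 2. Values remained for HBA1 in 23 birds, for HBBA, CA2 and SPTB in 22 and for SLC4A1 in 20. Genes looked at for the direction of the ratio did not all point the same way, so it stayed assumed. THRSP, a thyroid hormone target, was 0.86 higher in T3 than in VC (adjusted p = 0.959) and 1.65 higher in CS+T3 than in CS (adjusted p = 0.00803). It was also 1.45 higher in CS+T3 than in VC (limma adjusted p = 0.102) and differed by -1.06 between CS and T3 (limma adjusted p = 0.0356). With the sign taken here, THRSP thus stood higher where T3 was given. Of the glucocorticoid targets, FKBP5 differed by 0.27 (adjusted p = 0.221) and TAT by -0.37 (adjusted p = 0.156) between CS and VC. In CS+T3 both stood higher than in VC, by 0.47 each (adjusted p = 0.35 and 0.663), and than in T3, by 0.48 and 0.62 (adjusted p = 0.288 for both). From CS to CS+T3, TAT rose by 0.85 (limma adjusted p = 0.00524) and FKBP5 by 0.19 (limma adjusted p = 0.369).

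**Figure D1:**
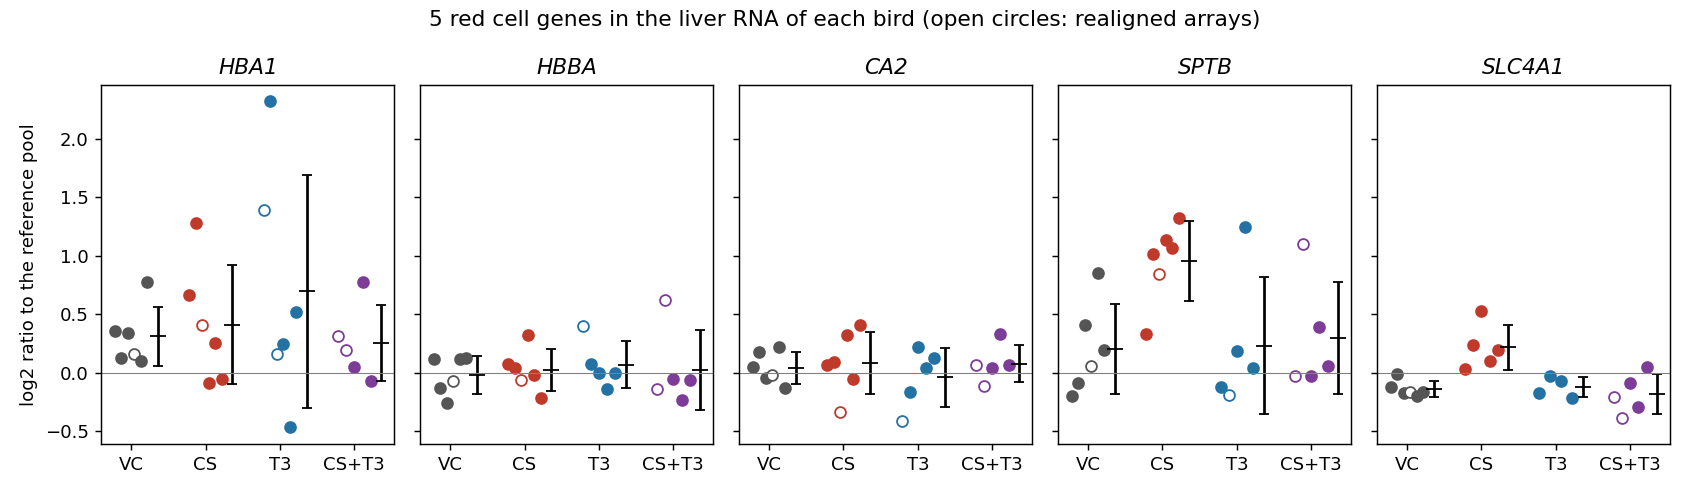
Log2 ratio to the reference pool (vertical axis) of the 5 genes in each bird, by group, with the group mean and SD as a bar beside the points and open circles for birds on the 6 realigned arrays. HBA1 reaches 2.32 in 1 T3 bird, the CS birds of SPTB lie between 0.33 and 1.32, and the CS birds of SLC4A1 all lie above 0 while every VC bird lies below it. The values are those after realignment.

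HBA1 had the widest spread of the 5 genes. Its log2 ratios in VC were 0.35, 0.13, 0.34, 0.16, 0.10 and 0.78, and in CS they were 0.66, 1.28, 0.41, -0.09, 0.26 and -0.05. In T3 they were 1.39, 2.32, 0.16, 0.24, -0.47 and 0.51, and in CS+T3 0.31, 0.20, 0.04, 0.78 and -0.07. The highest value and the lowest both came from T3 birds, 19 of the 23 birds lay above the pool, and all 4 groups overlapped. The group means were 0.31 ± 0.25 (SD, n = 6) in VC, 0.41 ± 0.51 (SD, n = 6) in CS, 0.69 ± 1.00 (SD, n = 6) in T3 and 0.25 ± 0.33 (SD, n = 5) in CS+T3. The T3 group exceeded VC by 0.38 (95% interval -0.28 to 1.05, limma adjusted p = 0.959), within the spread between birds. The difference between CS and VC was 0.10, with an interval of -0.57 to 0.77 that spans 0.675-fold to 1.70-fold. HBA1 lies beside the globin gene HBAD in the RefSeq annotation and HBBA between HBE and HBE1, and how far a spot also binds these relatives was not tested, since no other globin was tested under its own symbol.

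HBBA, the partner chain of haemoglobin, stayed closer to the pool. Its values in VC were 0.11, -0.13, -0.26, -0.07, 0.12 and 0.13, and in CS 0.08, 0.04, -0.06, 0.32, -0.02 and -0.22. In T3 they were 0.40, 0.08, -0.0034, -0.14 and -0.0029 (birds 1, 2, 4, 5 and 6), and in CS+T3 -0.14, 0.62, -0.05, -0.24 and -0.07. The 2 T3 birds that stood highest for HBA1, with 1.39 and 2.32, had HBBA values of 0.40 and 0.08, and the groups overlapped. HBBA differed from VC by 0.04 in CS (95% interval -0.23 to 0.31), by 0.08 in T3 (-0.20 to 0.36) and by 0.04 in CS+T3 (-0.24 to 0.32), with limma adjusted p-values of 0.903, 0.969 and 0.999. Across birds, after each group's mean had been removed, HBA1 and HBBA correlated at a Pearson r of 0.183 (p = 0.431, adjusted p = 0.678) and a Spearman rho of 0.246 (p = 0.273, adjusted p = 0.50) over 22 birds, by permutation. Without the 2 birds farthest from the median of HBA1 the Pearson r was 0.119.

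CA2 was read by 2 spots, and these did not follow each other. At the spot in block 26 the VC birds read 0.09, 0.0027, -0.01, -0.13, -0.13 and -0.03, and the CS birds 0.02, -0.05, -0.34, -0.05, -0.14 and -0.40. At the spot in block 44 the VC birds read 0.01, 0.35, -0.07, 0.08, 0.57 and -0.23, and the CS birds, without bird 3, read 0.11, 0.23, 0.69, 0.02 and 1.21. The T3 birds 1, 2, 4, 5 and 6 read -0.59, -0.14, 0.25, -0.07 and 0.21 at the first spot and -0.24, -0.19, 0.19, 0.15 and 0.04 at the second, and the CS+T3 birds 0.25, -0.09, -0.02, 0.38 and -0.19, then -0.11, -0.14, 0.09, 0.27 and 0.33. CS bird 6 had the lowest value of its group at the one spot and the highest at the other, and CS overlapped VC at both. The difference between CS and VC was -0.12 (SE 0.13, limma adjusted p = 0.625) in block 26 and 0.34 (SE 0.18, limma adjusted p = 0.318) in block 44. Over 21 birds the 2 spots correlated at a Pearson r of -0.0774 (permutation p = 0.711) within groups. Their mean, used as the value of the gene, was 0.04 ± 0.14 (SD, n = 6) in VC, 0.08 ± 0.27 (SD, n = 6) in CS, -0.04 ± 0.25 (SD, n = 5) in T3 and 0.08 ± 0.16 (SD, n = 5) in CS+T3. The mean differed from VC by 0.04 in CS (95% interval -0.21 to 0.29), by -0.08 in T3 (-0.35 to 0.18) and by 0.04 in CS+T3 (-0.23 to 0.30). Such disagreement was common on this array: over 2174 pairs of spots of 1 gene the median r was 0.0315, and over the 125 pairs in which both spots were among the most variable 20% it was 0.340.

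SPTB was high in most CS birds. The VC birds read -0.20, -0.09, 0.41, 0.05, 0.85 and 0.19, and the CS birds 0.33, 1.02, 0.84, 1.13, 1.06 and 1.32. The T3 birds 2 to 6 read -0.13, -0.19, 0.19, 1.24 and 0.04, and the CS+T3 birds -0.03, 1.10, -0.03, 0.39 and 0.05. In CS, 5 birds stood at 0.84 or above, a level reached by 1 bird in each of the other groups, so that CS overlapped every one of them. The mean was 0.95 ± 0.34 (SD, n = 6) in CS against 0.20 ± 0.38 (SD, n = 6) in VC, 0.23 ± 0.59 (SD, n = 5) in T3 and 0.30 ± 0.48 (SD, n = 5) in CS+T3. CS exceeded VC by 0.75 (SE 0.24, 95% interval 0.25 to 1.24, limma adjusted p = 0.0827), T3 by 0.72 (SE 0.25, adjusted p = 0.0763), and CS+T3 lay below CS by a difference of -0.65 (SE 0.25, adjusted p = 0.140). These adjusted values miss the threshold while the unadjusted limma p-values were 0.00480, 0.00863 and 0.0158. Unadjusted p-values under 0.05 were common in these comparisons, with 1809, 2321 and 1959 of the 9250 features. The difference between CS and VC passed when VC 5 (adjusted p = 0.0476), CS 1 (0.0473) or T3 5 (0.0335) was left out, with array weights (0.72, adjusted p = 0.0318) and with the other 2 groups out of the model (adjusted p = 0.0404). That between CS and T3 passed without CS 1 (adjusted p = 0.0456) or T3 5 (0.97, adjusted p = 0.00738).

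SLC4A1 was the member that passed. In VC its values were -0.12, -0.01, -0.17, -0.17, -0.20 and -0.17, and in CS, without bird 3, they were 0.03, 0.24, 0.53, 0.10 and 0.20. The T3 birds 2, 4, 5 and 6 read -0.18, -0.03, -0.07 and -0.22, and the CS+T3 birds -0.21, -0.38, -0.09, -0.29 and 0.05. Every CS bird lay above every VC bird and every T3 bird, and 1 CS+T3 bird, at 0.05, overlapped the lowest CS bird. This separation holds for the realigned values only. As deposited, VC 4 read 0.38, above every CS bird but CS 4, and CS 3, which had no value after realignment, read -0.04. The means were -0.14 ± 0.07 (SD, n = 6) in VC, 0.22 ± 0.19 (SD, n = 5) in CS, -0.12 ± 0.09 (SD, n = 4) in T3 and -0.18 ± 0.17 (SD, n = 5) in CS+T3. SLC4A1 rose by 0.36 from VC to CS (95% interval 0.16 to 0.55, limma adjusted p = 0.0370), was higher in CS than in T3 by 0.34 (0.12 to 0.56, adjusted p = 0.0493) and fell from CS to CS+T3 by 0.40 (fold 0.757, interval 0.656 to 0.873, adjusted p = 0.0323). The effect of T3 in birds given CS, less its effect in birds given vehicle, was -0.42 (SE 0.14, limma adjusted p = 0.363, unadjusted p = 0.00781). In liver RNA, a different number of red cells and a different amount of the transcript in each cell cannot be told apart.

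Of the 5 genes, SLC4A1 alone was thus called, in 3 of the 7 comparisons. Between CS and VC, 1 of 5 passed, upward, where 4.03% of all 9250 features passed, 0.962% upward and 3.07% downward. Between CS and T3, 1 of 5 passed, upward, where 7.77% of all features did, 2.63% upward and 5.15% downward. Between CS+T3 and CS 1 of 5 passed, downward, where 2.61% did, 2.25% upward and 0.357% downward. With 5 members, nothing is read from 1 call against these shares. None of the 5 passed in limma for T3 against VC, where 0% of features did, for CS+T3 against VC (0.0541%), for CS+T3 against T3 (0.0432%) or for the interaction (0.0865%). At an unadjusted p under 0.05 the members numbered 0 in the first 3 of these and 1 in the interaction, while features numbered 446, 410, 392 and 896. The comparisons share groups, so the 3 calls rest on the same 5 CS birds. The plot of differences sets all 5 genes side by side.

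**Figure D2:**
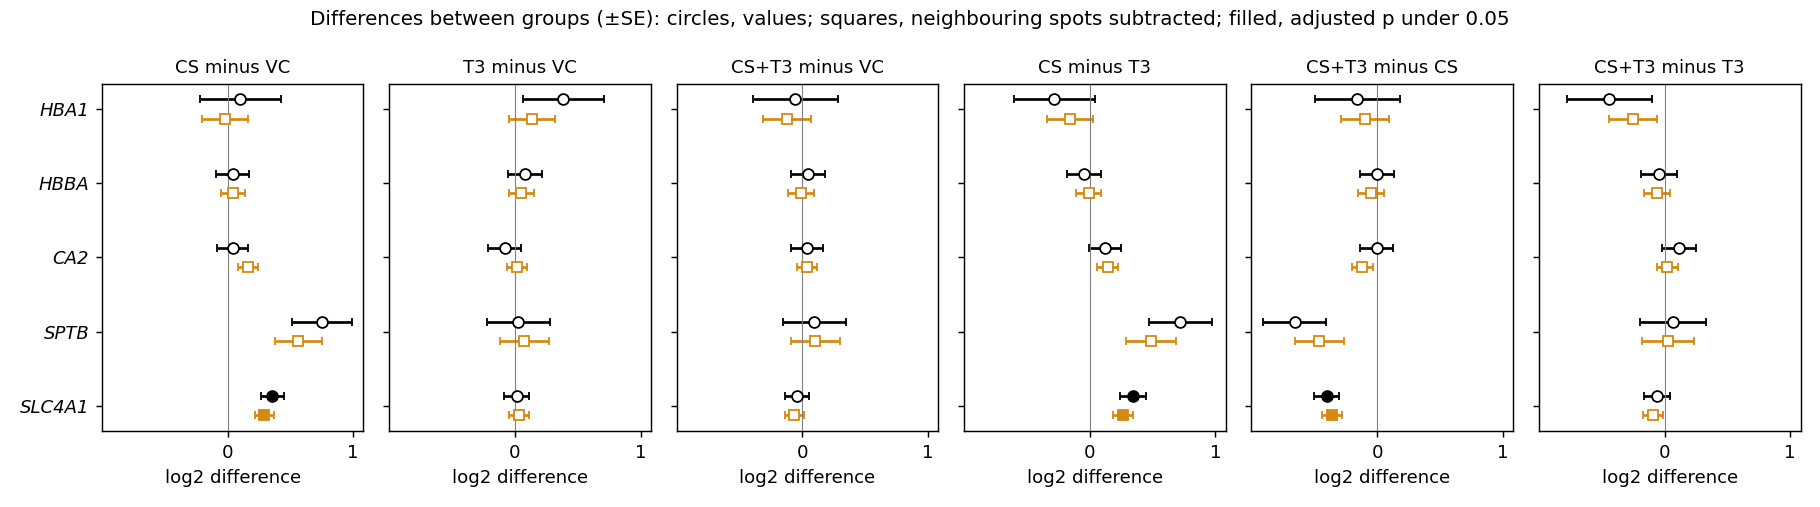
Log2 difference between groups (horizontal axis) with its SE for the 5 genes in 6 comparisons, as circles for the log2 ratios and squares for the ratios after the median of the surrounding spots was subtracted, filled where the limma adjusted p was under 0.05. SLC4A1 is filled in the 3 comparisons that involve the CS group, and SPTB lies on the same side in each with a longer bar.

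The call for SLC4A1 lay near the threshold. Against VC it passed in 15 of 23 fits with 1 array left out, where the difference ran from 0.28 to 0.40 and the adjusted p from 0.0268 to 0.116. The T3 and CS+T3 arrays and CS 3 have no value in this comparison, so leaving them out kept the difference as it was. Of the arrays with a value in it, only VC 2, CS 1 or CS 5 could be left out with the call kept. The call was lost without VC 1, 3, 4, 5 or 6 or without CS 2, 4 or 6, and CS 4, the highest bird, had the largest part (0.28, adjusted p = 0.116). Against T3 it passed in 5 of 23 such fits (0.27 to 0.39), and among arrays with a value there only without CS 1 or CS 5. From CS to CS+T3 it passed in 17 of 23 (-0.46 to -0.32) and was lost without CS 2, 4 or 6 or CS+T3 1, 2 or 4. Among arrays with a value in that comparison it was kept only without CS 1, CS 5, CS+T3 3 or CS+T3 5. With the values as deposited, before realignment, CS exceeded VC by 0.22 (adjusted p = 0.377) and T3 by 0.31 (adjusted p = 0.148), and CS+T3 differed from CS by -0.31 (adjusted p = 0.240). Without the 4 mostly displaced arrays these values were 0.35, 0.34 and -0.40 (adjusted p = 0.101, 0.0929 and 0.123), and without all 6 they were 0.35, 0.34 and -0.33 (adjusted p = 0.0681, 0.0807 and 0.200). The direction was the same in all of these.

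The values of each gene also moved with those of the spots printed around it, which carry other genes. For each bird the median was taken of the spots within 3 rows and 3 columns of the gene's spot in the same block. Over the birds, the HBA1 spot and this median correlated at r = 0.896, and the median was highest, at 1.13, in the T3 bird with the highest HBA1 value of 2.32. The r was 0.802 for SPTB, 0.699 for HBBA, 0.598 and 0.410 for the CA2 spots of blocks 26 and 44 and 0.592 for SLC4A1. Over 9953 spots it had a median of 0.636, with quartiles of 0.441 and 0.774, so HBA1 and SPTB lay above the upper quartile and the block 44 spot of CA2 below the lower. Subtraction of the neighbours reduced the SD of HBA1 over birds from 0.592 to 0.330. What this shared movement comes from was not tested.

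**Figure D3:**
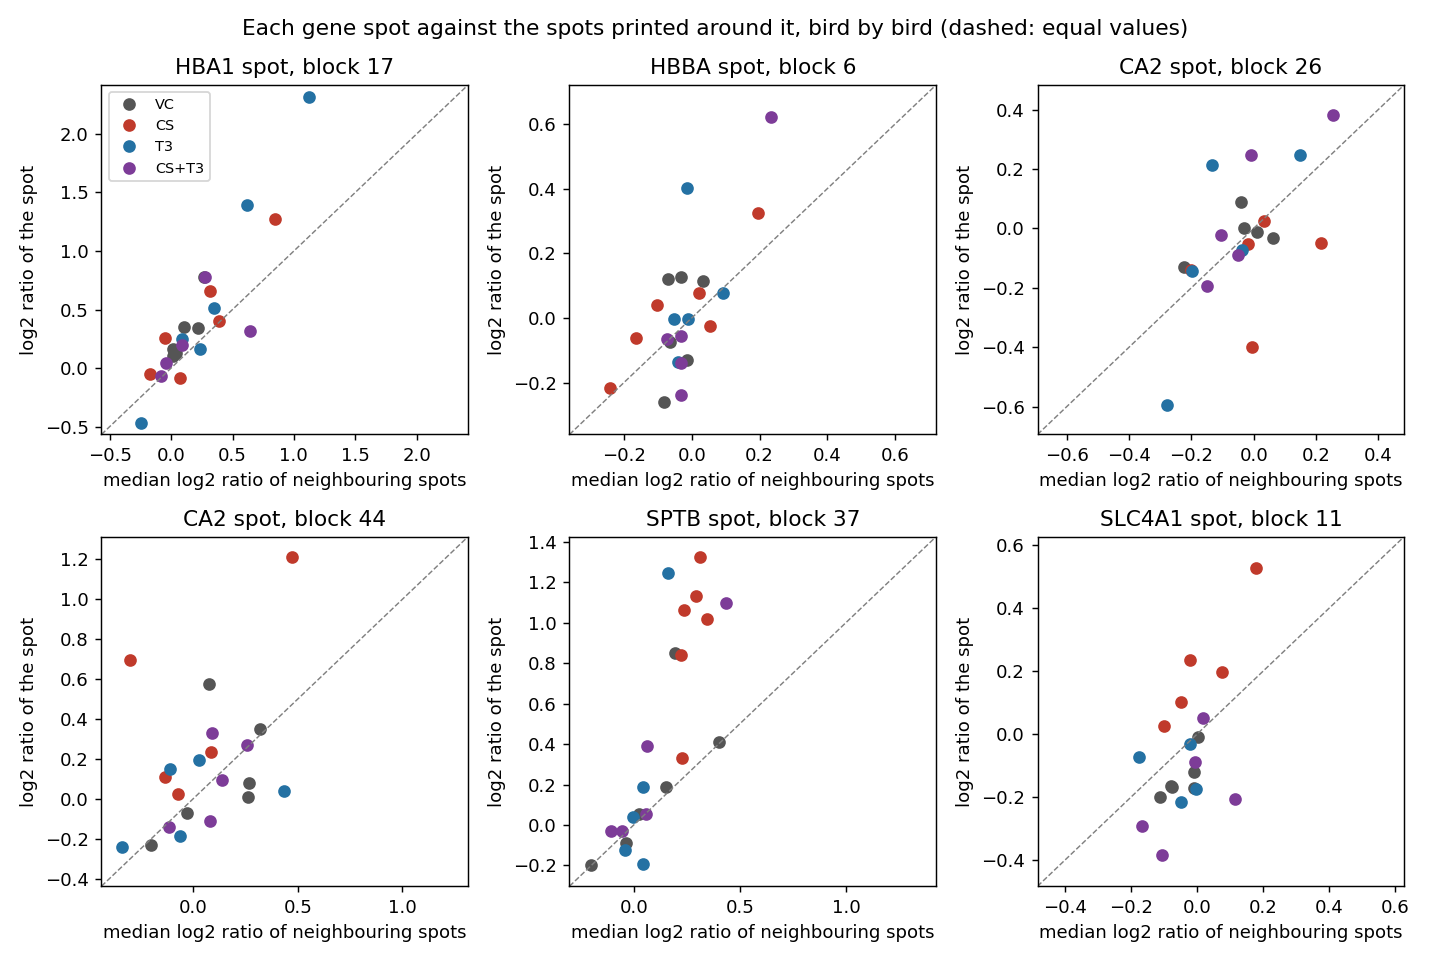
Log2 ratio of each gene's spot (vertical axis) against the median log2 ratio of its neighbouring spots (horizontal axis), 1 point per bird coloured by group, with a dashed line where both are equal. The points of HBA1 climb with their neighbours, and the highest, at 2.32 against a neighbour median of 1.13, stands above the line; most CS points of SPTB stand well above it, and the 5 CS points of SLC4A1 all lie above it.

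After the neighbouring medians were subtracted, SLC4A1 passed in the same 3 comparisons and the other genes in none. CS then exceeded VC by 0.29 (SE 0.08, limma adjusted p = 0.0210), where 7.76% of 9183 features passed (2.08% upward), and T3 by 0.26 (SE 0.08, adjusted p = 0.0399), where 13.4% passed (4.25% upward). CS+T3 lay below CS by a difference of -0.36 (SE 0.08, adjusted p = 0.00989), where 8.23% passed (1.99% downward). With the 6 displaced arrays also left out, the last was lost (-0.26, adjusted p = 0.101), and with block medians subtracted in place of neighbours CS no longer passed against VC (0.29, adjusted p = 0.0603) or T3 (0.24, adjusted p = 0.130). SPTB was 0.56 higher in CS than in VC (SE 0.19, adjusted p = 0.0645), with a neighbour median between 0.22 and 0.35 in the CS birds and between -0.20 and 0.40 in the VC birds. The T3 difference of HBA1 shrank from 0.38 to 0.13 (SE 0.18, adjusted p = 0.928). The CS difference of CA2 became -0.16 (adjusted p = 0.380) in block 26 and 0.44 (adjusted p = 0.0882) in block 44, still with opposite signs. These subtractions were chosen after the data were seen.

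Over the 10 gene pairs and the pair of CA2 spots, none of the 11 within-group correlations passed after adjustment, and the Pearson r of the gene pairs ran from -0.398 (HBA1 with CA2) to 0.35 (CA2 with SLC4A1). HBA1 correlated negatively with CA2 (rho -0.503, permutation p = 0.0421, adjusted p = 0.231) and with SLC4A1 (rho -0.537, permutation p = 0.0323, adjusted p = 0.231). SPTB and SLC4A1, which both stood high in CS, correlated within groups at an r of -0.0987 (permutation p = 0.691, adjusted p = 0.762) over 20 birds. All arrays share the pool, and part of each value is shared with the neighbouring spots. After their subtraction HBA1 and CA2 correlated at a rho of -0.649 (permutation adjusted p = 0.0323) and an r of -0.450 (permutation adjusted p = 0.0890) over 21 birds, with an r of -0.451 when the 2 farthest birds were left out. The 2 CA2 spots then stood at a rho of -0.707 (permutation adjusted p = 0.0323) and an r of -0.614 (adjusted p = 0.0890). CA2 and SLC4A1 stood at an r of 0.435 (permutation p = 0.0178, adjusted p = 0.0890) and a rho of 0.504 (permutation p = 0.0294, adjusted p = 0.108). The globin pair stood at an r of 0.184 (permutation adjusted p = 0.661), and SPTB with SLC4A1 at an r of 0.240 (permutation adjusted p = 0.558).

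The genes whose pattern was most like each member were in part genes with a spot in the same block. For HBA1 the 5 named genes with the highest r over 19 to 23 arrays were RCN2, BRD8, IDH3B, SVIL and ASF1A (0.834 to 0.878), and all 5 have a spot in its block 17. For SPTB they were SLC16A4, PDAP1, WLS, PLS3 and CCNG2 (0.869 to 0.906), of which the first 3 have a spot in its block 37. The genes most like SLC4A1 were NAA35, APBB2, EIF4ENIF1, NEK4 and COMMD3 (0.848 to 0.899), none of them in block 11. HBBA was most like DNASE1L3, MPDZ, BRE, PID1 and FLII (0.787 to 0.820) and CA2 most like EDARADD, MOSPD1, SRGAP3, MGAT5B and LOC422151 (0.795 to 0.877). None of these 25 is another of the 5 genes. Of the 20 spots most like the HBA1 spot, 15 lay in the same block, which held 2.23% of the spots compared, and for SLC4A1 the number was 2 of 20 in a block with 2.10%.

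Other genes of the red cell were read from a list of 63 symbols for globins, haem synthesis, iron uptake, membrane and skeleton, enzymes and erythroid regulators, of which 25 were on the array and 20, the 5 genes included, were tested. Against VC, SLC4A1 rose in CS and STEAP3 fell by 0.97 (SE 0.25, limma adjusted p = 0.0329), 2 of 20 genes beside 4.03% of all features. STEAP3 is a reductase of iron taken up with transferrin, and it is also made in hepatocytes. Which cells of the liver the transcripts of this or any other listed gene came from was not tested. The other 18 did not pass. The median difference of the 20 was 0.04 against 0.03 over all features. Against T3, SLC4A1 and EPB41 (0.30, SE 0.08, adjusted p = 0.0230) were higher in CS and STEAP3 was lower (-0.96, SE 0.24, adjusted p = 0.0182), which makes 3 of 20 beside 7.77%, with a median of 0.08 against 0.05. EPB41 encodes a protein that links spectrin to actin at the red cell membrane. From CS to CS+T3, STEAP3 rose by 1.23 (SE 0.25, adjusted p = 0.0121), SLC4A1 fell (2 of 20 beside 2.61%), and the median was -0.07 against -0.04. None of the 20 passed in the other 4 comparisons, where 0 did at an unadjusted p under 0.05 except 2 in the interaction. ANK1, the ankyrin that ties band 3 to spectrin, differed by 0.06 between CS and VC (SE 0.09, adjusted p = 0.770), and H1F0, a linker histone, by 0.53 (SE 0.22, adjusted p = 0.179). SLC25A39 (-0.34, SE 0.13, limma adjusted p = 0.160) and BPGM (-0.41, SE 0.23, limma adjusted p = 0.332) differed the other way. Of the 20 differences between CS and VC, 14 were positive, those of the 5 genes among them. The share over all features was not taken, and the median over all features was itself positive, at 0.03.

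**Figure D4:**
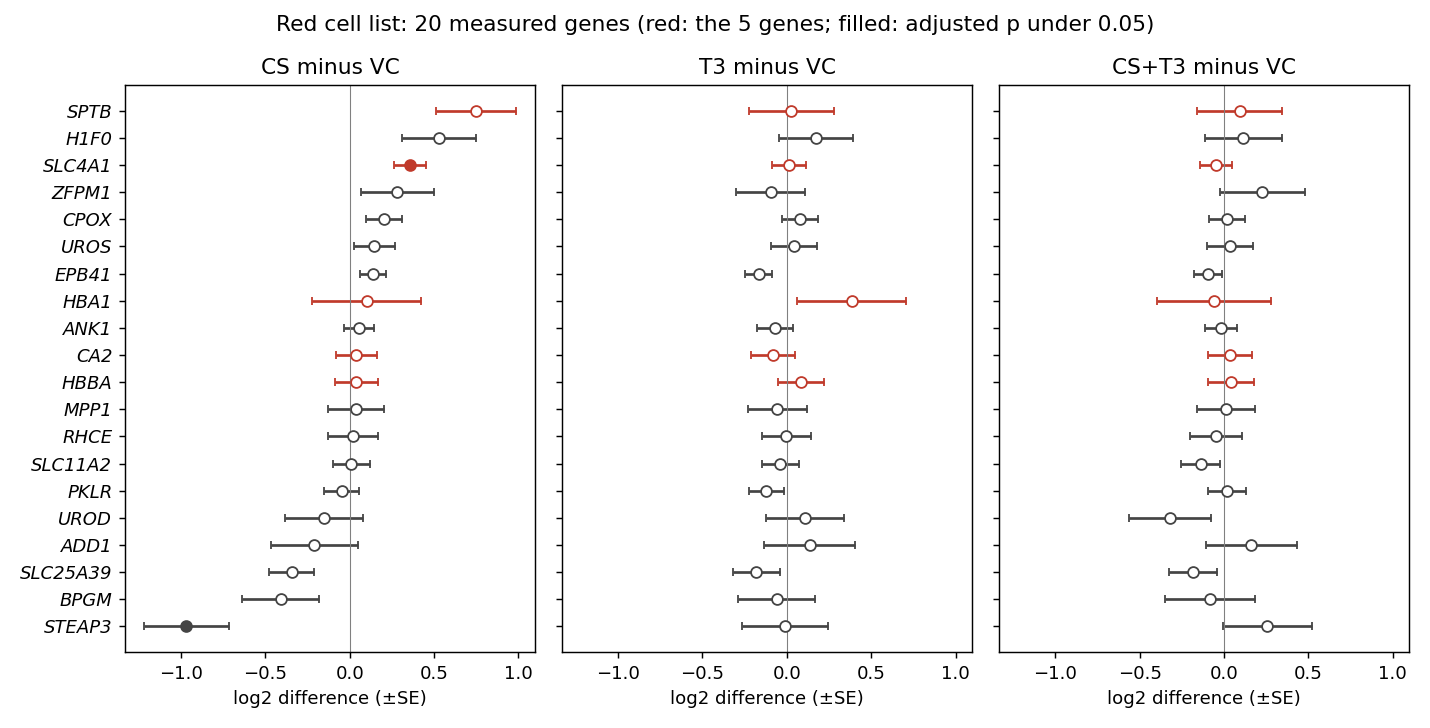
Log2 difference from VC with its SE (horizontal axis) for the 20 tested genes of the red cell list in CS, T3 and CS+T3, with the 5 genes in red and filled points for a limma adjusted p under 0.05. In CS, SLC4A1 is filled above 0 and STEAP3 is filled below 0, and no point is filled in T3 or CS+T3.

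Among markers of the other cells of the liver, most hepatocyte genes fell in CS. The mean log2 ratio of 11 hepatocyte genes ran from -1.22 to -0.39 over the CS birds and from -0.08 to 0.10 over the VC birds. Against VC, 6 of the 11 fell in CS, where 3.07% of all features did. Among them were F2, which encodes prothrombin (-1.05, limma adjusted p = 0.000240), and TTR, which encodes transthyretin (-1.41, adjusted p = 0.00235). Of the 11, 1 differed the other way, FGG (0.28, adjusted p = 0.313). FGG passed upward with neighbouring spots subtracted (0.47, limma adjusted p = 0.0215) and, without subtraction, in CS against T3 (0.64, limma adjusted p = 0.0164). Of 8 leukocyte genes 2 fell beside the same 3.07%, BTK (-0.71, adjusted p = 0.00356) and CYBB (-0.45, adjusted p = 0.0385), with list means of -0.41 to 0.03 in CS and -0.13 to 0.06 in VC. The other 6 did not pass, and 3 of the 8 differences were positive: LCP1 (0.27), LY86 (0.10) and CD3E (0.01). None of the 6 endothelial genes (means of 0.12 to 0.46 in CS and -0.04 to 0.26 in VC), the 7 stellate cell and matrix genes (-0.15 to 0.39 and -0.05 to 0.08) or the 1 thrombocyte gene tested, F2RL3 (-0.27 to 0.32 and -0.13 to 0.18), passed in that comparison. The mean of the 5 red cell genes ran from 0.21 to 0.53 in CS, from -0.01 to 0.22 in VC, from -0.02 to 0.46 in T3 and from -0.02 to 0.28 in CS+T3. As for the other lists, each mean covers only the genes with a value in that bird. The highest T3 mean came from T3 1, with HBA1, HBBA and CA2 only, and the lowest from T3 3, with HBA1 and SPTB only. The lowest CS mean came from CS 3, which had no value for SLC4A1. The part of these other cells in the difference of SLC4A1 was not tested.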

How the data were processed

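The authors deposited 1 table with 1 column of log2 ratios per array. Their range (-3.86 to 4.05) was taken as that of base 2. Per the labels, bird RNA (20 micrograms) carried Alexa Fluor 555 and the pool Alexa Fluor 647. The background correction, the normalization and any spot filter are not given in the sources used here, and no slide or scan date is given, so batches could not be examined. Of 19200 spots, 10601 carried 1 gene symbol in the platform annotation, 8599 none and 0 more than 1, and 10455 named spots matched RefSeq (GRCg7b) by Entrez ID.

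Arrays were realigned by a search over lags of up to 40 spots that used no groups and was tried on simulated shifts. Those shifts were small and moved blank spots along with the values. On the 6 arrays lags reached 20 and blanks had stayed in place. Their blanks correlated with those of other arrays at 0.697 to 0.840 in place and at 0.0537 to 0.206 at the lag. The simulated shifts therefore do not show how well the search worked on the 6 arrays. An array was realigned where a part of at least 1000 spots reached r of 0.25. Parts under 0.1 were to be dropped, but the lowest part, on T3 1, reached 0.107, so none was. Blocks in which the lag changed were left without values. So were spots that were blank in place or whose value would come from a blank. This left 6348 to 10816 values on the 6 arrays. Spots of a gene were averaged. The model, checked on simulated data, gave each of the 4 groups its mean and shared 1 spread over all 23 arrays (R 4.3.3, limma 3.58.1, lmFit and eBayes), with 7 comparisons. Neighbour medians needed at least 10 spots. Correlations used 100000 permutations of deviations from group means, in a family of 11.

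The members and lists were chosen with earlier results of these data known. The genes named were the members, the 5 named genes most like each, red cell list genes past the test and 3 genes for the direction. ANK1, H1F0, SLC25A39, BPGM and the marker examples were chosen after their values were seen. Each replicate is 1 bird; pens (3 birds each) and the 2 rooms are not tied to birds in the labels. Same-numbered birds of different groups did not deviate together (33 pairs, r of -0.458 to 0.360, median -0.0319), so numbers were not taken as pairs. The number of arrays limits the precision. Alternatives are given in the closing section.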

Additional observations from a re-analysis of the deposited data

Results flagged for a closer look

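Each gene was looked at in each group, which made 20 sets of values, and in 3 of them 1 bird lay far from the others. A bird was flagged by its gap to the next bird over the range of the set. With normally spread values chance alone flags about 1 in 20, but the 20 sets share birds. HBA1 read 0.78 in VC 6, against 0.35 in the next bird, with a neighbour median of 0.27 and 0.51 left after its subtraction. HBBA read 0.62 in CS+T3 2, against -0.05 in the next bird, with a neighbour median of 0.23 and 0.39 left. SPTB read 1.24 in T3 5, against 0.19 in the next bird, with a neighbour median of 0.16 and 1.08 left. The cause was not tested.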

How the results depend on the processing

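Of 520 differences of the 5 genes under other settings, 435 kept direction and side of the threshold, 27 lost a call and 2 gained one; of 805 with 1 bird left out, 729 kept both, 32 lost a call, 5 gained one and 39 changed sign. A bird outside the groups compared left the difference unchanged when it was left out. The neighbour and block-median settings were chosen after the data were seen. A replicate block changed no call of the 5 genes other than those of SLC4A1. The interaction uses all 4 groups and has no value with only the groups compared. The cause was not tested.

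SLC4A1 kept its direction but missed the threshold at 0.22 for CS against VC, 0.31 for CS against T3 and -0.31 for CS+T3 against CS on deposited values; 0.35 for CS against VC, 0.34 for CS against T3 and -0.40 for CS+T3 against CS without the 4 mostly displaced arrays. It missed at 0.35 for CS against VC, 0.34 for CS against T3 and -0.33 for CS+T3 against CS without the 6 displaced arrays; 0.35 for CS against VC, 0.28 for CS against T3 and -0.35 for CS+T3 against CS with quantile normalization. It missed at 0.28 for CS against VC, 0.27 for CS against T3 and -0.27 for CS+T3 against CS with array weights; 0.36 for CS against VC, 0.34 for CS against T3 and -0.40 for CS+T3 against CS with only the groups compared. It missed at 0.36 for CS against VC, 0.36 for CS against T3 and -0.42 for CS+T3 against CS with the replicate number as a block; 0.29 for CS against VC and 0.24 for CS against T3 with block medians subtracted. It missed at 0.31 for CS against T3 with arrays centred on the median; 0.34 for CS against T3 with at least 2 values in every group. It missed at 0.34 for CS against T3 with the median of a gene's spots; -0.26 for CS+T3 against CS with neighbours subtracted and without the 6 arrays. SPTB passed for CS against VC at 0.72 with array weights and 0.75 with only the groups compared. Of 520 differences, 56 changed sign, none of them past the test under either setting. HBA1 turned for CS against VC from 0.10 to -0.036 with quantile normalization, -0.022 with neighbouring spots subtracted and -0.00050 with neighbours subtracted and without the 6 arrays. HBA1 turned for CS against T3 from -0.28 to 0.042 with array weights. HBBA turned for CS against VC from 0.040 to -0.020 with block medians subtracted. HBBA turned for T3 against VC from 0.084 to -0.011 without the 6 displaced arrays and -0.041 with neighbours subtracted and without the 6 arrays. HBBA turned for CS+T3 against VC from 0.042 to -0.11 without the 6 displaced arrays, -0.0020 with quantile normalization, -0.0021 with array weights, -0.0093 with neighbouring spots subtracted, -0.10 with neighbours subtracted and without the 6 arrays and -0.037 with block medians subtracted. HBBA turned for CS against T3 from -0.044 to 0.0072 on deposited values, 0.056 without the 6 displaced arrays, 0.031 with array weights and 0.069 with neighbours subtracted and without the 6 arrays. HBBA turned for CS+T3 against CS from 0.0018 to -0.16 without the 6 displaced arrays, -0.036 with quantile normalization, -0.093 with array weights, -0.0073 with the replicate number as a block, -0.051 with neighbouring spots subtracted, -0.13 with neighbours subtracted and without the 6 arrays and -0.017 with block medians subtracted. HBBA turned for CS+T3 against T3 from -0.042 to 0.024 on deposited values. HBBA turned for the interaction from -0.082 to 0.0038 on deposited values. CA2 turned for CS against VC from 0.040 to -0.015 with array weights. CA2 turned for T3 against VC from -0.082 to 0.029 with array weights, 0.018 with neighbouring spots subtracted and 0.012 with neighbours subtracted and without the 6 arrays. CA2 turned for CS+T3 against VC from 0.035 to -0.012 on deposited values. CA2 turned for CS against T3 from 0.12 to -0.044 with array weights. CA2 turned for CS+T3 against CS from -0.0051 to 0.031 with quantile normalization, 0.031 with arrays centred on the median, 0.051 with array weights, 0.019 with the replicate number as a block and 0.0094 with block medians subtracted. CA2 turned for the interaction from 0.077 to -0.022 without the 6 displaced arrays, -0.14 with neighbouring spots subtracted and -0.11 with neighbours subtracted and without the 6 arrays. SPTB turned for T3 against VC from 0.027 to -0.064 with the replicate number as a block. SPTB turned for CS+T3 against VC from 0.094 to -0.012 on deposited values and -0.094 without the 6 displaced arrays. SPTB turned for CS+T3 against T3 from 0.067 to -0.040 on deposited values, -0.20 without the 6 displaced arrays, -0.026 with quantile normalization, -0.082 with array weights and -0.16 with neighbours subtracted and without the 6 arrays. SLC4A1 turned for T3 against VC from 0.015 to -0.085 on deposited values. SLC4A1 turned for CS+T3 against VC from -0.045 to 0.023 without the 6 displaced arrays, 0.00063 with quantile normalization, 0.0062 with array weights and 0.033 with neighbours subtracted and without the 6 arrays. SLC4A1 turned for CS+T3 against T3 from -0.060 to 0.014 without the 6 displaced arrays, 0.0023 with array weights and 0.0043 with neighbours subtracted and without the 6 arrays. Counts of features past the test also moved. For CS against VC the count of 373 became 72 on deposited values, 186 without the 4 mostly displaced arrays, 237 without the 6 displaced arrays, 145 with quantile normalization, 772 with array weights, 242 with the replicate number as a block, 713 with neighbouring spots subtracted and 604 with block medians subtracted. For CS+T3 against VC the count of 5 became 0 on deposited values, 3 without the 4 mostly displaced arrays, 1 without the 6 displaced arrays, 3 with quantile normalization, 34 with array weights, 3 with a robust prior and trend, 9 with neighbouring spots subtracted and 3 with neighbours subtracted and without the 6 arrays. For CS against T3 the count of 719 became 233 on deposited values, 334 without the 4 mostly displaced arrays, 266 without the 6 displaced arrays, 233 with quantile normalization, 275 with only the groups compared, 444 with the replicate number as a block, 1231 with neighbouring spots subtracted and 1089 with block medians subtracted. For CS+T3 against CS the count of 241 became 5 on deposited values, 63 without the 4 mostly displaced arrays, 26 without the 6 displaced arrays, 92 with quantile normalization, 496 with array weights, 80 with the replicate number as a block, 756 with neighbouring spots subtracted, 112 with neighbours subtracted and without the 6 arrays and 667 with block medians subtracted. For CS+T3 against T3 the count of 4 became 1 on deposited values, 0 without the 6 displaced arrays, 7 with array weights, 10 with neighbouring spots subtracted, 0 with neighbours subtracted and without the 6 arrays and 11 with block medians subtracted. For the interaction the count of 8 became 0 on deposited values, 0 without the 4 mostly displaced arrays, 0 without the 6 displaced arrays, 2 with quantile normalization, 0 with at least 2 values in every group, 39 with array weights, 0 with the replicate number as a block, 30 with neighbouring spots subtracted, 0 with neighbours subtracted and without the 6 arrays and 17 with block medians subtracted. With each bird left out in turn, counts ranged from 216 to 596 for CS against VC, 3 to 7 for CS+T3 against VC, 417 to 1107 for CS against T3, 92 to 674 for CS+T3 against CS, 4 to 8 for CS+T3 against T3 and 0 to 36 for the interaction. HBA1 then ranged from -0.073 to 0.20 for CS against VC, -0.19 to 0.036 for CS+T3 against VC, -0.52 to 0.042 for CS against T3 and -0.29 to 0.016 for CS+T3 against CS. HBBA then ranged from -0.020 to 0.088 for CS against VC, -0.11 to 0.11 for CS+T3 against VC, -0.10 to 0.039 for CS against T3, -0.15 to 0.067 for CS+T3 against CS, -0.19 to 0.041 for CS+T3 against T3 and -0.23 to 0.0013 for the interaction. CA2 then ranged from -0.025 to 0.12 for CS against VC, -0.15 to 0.012 for T3 against VC, -0.027 to 0.083 for CS+T3 against VC, -0.089 to 0.060 for CS+T3 against CS and -0.017 to 0.14 for the interaction. SPTB then ranged from 0.67 to 0.88 for CS against VC, -0.23 to 0.16 for T3 against VC, -0.11 to 0.22 for CS+T3 against VC, 0.62 to 0.97 for CS against T3 and -0.13 to 0.32 for CS+T3 against T3. SLC4A1 then ranged from 0.28 to 0.40 for CS against VC, -0.016 to 0.046 for T3 against VC, -0.10 to 0.0050 for CS+T3 against VC, 0.27 to 0.39 for CS against T3 and -0.46 to -0.32 for CS+T3 against CS.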
